A study of Mus musculus with 12 samples.

Results

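N6-methyladenosine (m6A) is a methyl mark placed on adenines inside messenger RNA. The genes described here encode the proteins that write or erase it in mouse kidney. They were chosen by name and are 10 of the 57490 genes in the count table: the writers Mettl3, Mettl14, Wtap, Virma, Rbm15, Rbm15b, Zc3h13 and Cbll1, and the erasers Fto and Alkbh5. All 10 passed the filter on low counts, which left 17431 genes to test.

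Kidney mRNA of 12 male mice was sequenced, with 1 mouse per library and 4 mice in each of 3 groups, to ask how a herbal decoction alters gene expression in diabetic nephropathy. Ctrl mice were db/m mice, which the labels call wild type and the study's methods call heterozygous for the db mutation. Model mice were db/db mice of the strain BKS.Cg-Dock7m +/+ Leprdb/JNju, in which both copies of the leptin receptor gene Lepr carry db. YHY mice were db/db mice given Yiqi Huoxue Yangyin Decoction (YHY), a water extract of medicinal plants, by gavage every day for 4 weeks, at 6.24 g/mL in the labels. Ctrl and Model mice received the same volume of purified water, and the labels give an age of 13 weeks. The db/db mice had been selected for high random blood glucose and were assigned at random by glucose and weight. The labels name whole kidney and the series design names renal cortex.

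Mettl3 carries the methyltransferase activity and works as a dimer with Mettl14, which holds the RNA. Wtap, Virma, Zc3h13, Cbll1, Rbm15 and Rbm15b form a larger assembly around the dimer that places it in the nucleus and on its target transcripts, while Fto and Alkbh5 remove methyl groups by oxidation. Reader proteins that bind the mark alter splicing, translation and decay of the transcript, and in the kidney the enzymes have been studied in podocyte and tubule injury.

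Library totals were 29632718 to 33276634 counts in Ctrl, 24415658 to 29784346 in Model and 25149764 to 29698342 in YHY. The share of counts on the 37 genes of the mitochondrial genome separated Ctrl from db/db mice. It was 18.6%, 22.7%, 18.4% and 18.5% in Ctrl mice 1 to 4, 41.2%, 58.9%, 55.3% and 53.4% in Model, and 53.8%, 64.6%, 54.6% and 54.2% in YHY. Every db/db mouse lay above every Ctrl mouse, and Model and YHY overlapped. Because these transcripts fill so much of a db/db library, the way libraries are scaled sets where no change lies. Levels are given as CPM, the counts of a gene relative to the library size after TMM scaling, or as FPKM, which is CPM per kilobase of gene length. With TMM scaling the median log2 fold change over all genes was 0.04 for Model against Ctrl. Scaling by library size alone moved it by -0.43, scaling by the counts outside the mitochondrial genome by 0.33, and upper-quartile scaling by 0.10. The corresponding share of called genes that were higher was 51.5% with TMM, 21.4% with library size alone and 77.5% without the mitochondrial genes.

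The libraries carried kidney markers. Over proximal tubule genes the summed CPM reached 4418 for Ctrl, 3292 for Model and 2550.3 for YHY (means, n = 4, with Slc34a1 the highest in CPM). By edgeR, Lrp2 (log2 fold change -1.68) and Aqp1 (-0.94), 2 of the 5, fell in Model against Ctrl. Podocyte genes summed to 107 to 147 CPM in Ctrl, 100.2 to 249.6 in Model, with Model 1 the highest, and 74.1 to 153 in YHY, with 2 of 5 (Nphs1 and Synpo) higher in Model. Leukocyte genes, of which Lyz2 was the highest in CPM, summed to 74.6 to 117 CPM in Ctrl, 126 to 204 in Model and 133 to 399 in YHY. By edgeR, 1 of 4 tested (Cd68, 1.05) was higher in Model. By edgeR, 1 of 2 loop of Henle genes (Umod, -2.86) was lower, 1 of 2 distal convoluted tubule genes (Slc12a3, 1.33) higher, and 2 of 4 collecting duct genes (Aqp2 and Aqp3) lower. DESeq2 did not call Aqp2 in Model (DESeq2 adjusted P = 0.0662). It also called Slc22a6 lower (-0.74, DESeq2 adjusted P = 0.0293) and Lyz2 higher (0.73, DESeq2 adjusted P = 0.0453). Stroma had 1 of 3 genes higher (Pdgfrb), and no endothelial gene of 4 passed in Model against Ctrl by edgeR, by DESeq2 or at an unadjusted P under 0.05. Between YHY and Model, 1 of 2 distal convoluted tubule genes (Pvalb, -1.59, edgeR adjusted P = 0.0102) and 1 of 4 collecting duct genes (Atp6v1g3, -1.13, edgeR adjusted P = 0.00568) were lower in YHY, and no proximal tubule, loop of Henle or endothelial gene passed by edgeR. By DESeq2, Slc22a6 and Aqp1 of the proximal tubule and Kdr of the endothelium were lower there and Umod was higher (0.97, DESeq2 adjusted P = 0.0312). Liver genes summed to 7.29, 14.6 and 10.8 CPM with 1 of 2 higher in Model (Apoa1). Adipocyte and skeletal muscle genes were too low to test, and Plin1 and Ckm were at 0 in all 4 Ctrl mice. Nuclear-retained RNA (Malat1, Neat1, Meg3 and Kcnq1ot1, with Neat1 the highest in CPM) summed to 366, 378, 305 and 296 CPM in Ctrl mice 1 to 4, to 559, 1056, 735 and 655 CPM in Model, and to 1333, 1299.7, 1118 and 1532 CPM in YHY. The groups did not overlap, and 4 of 4 genes rose in Model against Ctrl and 2 of 4 (Malat1 and Neat1) in YHY against Model. Of all genes tested, edgeR called 19.6% higher and 18.5% lower in Model against Ctrl, and 5.63% and 7.62% in YHY against Model. Beside these shares, calls in lists as short as the cell type lists do not set a cell type apart. The Neat1 call of YHY against Model was absent without Model 3 (edgeR adjusted P = 0.0534), without Model 4 (0.0503) and in a fit of 9 mice that leaves out Ctrl 2, Model 1 and YHY 4 (0.0515). The part of tissue composition and of RNA compartment in the results below was not tested, and in whole tissue fewer cells of a type and less RNA per cell cannot be told apart.

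Between the members, levels can be compared only per length. In Ctrl kidneys the eraser Alkbh5 had the highest FPKM, 12.7 ± 0.730 (SD, n = 4 here and below), followed by the adaptor Wtap at 5.51 ± 0.486, the eraser Fto at 3.15 ± 0.196, Zc3h13 at 2.54 ± 0.233, Virma at 2.34 ± 0.219 and Rbm15b at 2.15 ± 0.419. The lower levels were Rbm15 at 1.49 ± 0.0263, Mettl3 at 1.33 ± 0.258, Cbll1 at 1.19 ± 0.127 and Mettl14 at 0.999 ± 0.0904. Of neighbours in this order, Zc3h13, Virma and Rbm15b lay within their spread of each other, as did each pair of neighbours in the run Rbm15, Mettl3, Cbll1 and Mettl14. The order was not the same in db/db kidneys. In Model, Alkbh5 (7.92 ± 0.595 FPKM) and Wtap (7.38 ± 0.678) were within their spread and Mettl3 had the lowest mean of the 10 at 0.698 ± 0.0549, within the spread of Cbll1 (0.749 ± 0.0672), which was below it in Model 2. In YHY, Wtap (9.05 ± 0.807) lay above Alkbh5 (5.98 ± 0.182) in every mouse, and Zc3h13 (5.06 ± 1.11) lay within the spread of Alkbh5 and above it in YHY 2.

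In GRCm39, the build of the count table, Mettl3 (ENSMUSG00000022160) lies at chr14:52532298-52542585 on the minus strand, Mettl14 (ENSMUSG00000028114) at chr3:123161946-123179757 on the minus strand, and Wtap (ENSMUSG00000060475) at chr17:13185683-13213056 on the minus strand. Zc3h13 (ENSMUSG00000022000) lies at chr14:75521813-75581866 on the plus strand, Fto (ENSMUSG00000055932) at chr8:92040153-92395067 on the plus strand, and Alkbh5 (ENSMUSG00000042650) at chr11:60427207-60449338 on the plus strand. Virma (ENSMUSG00000040720) is on chromosome 4, Rbm15 (ENSMUSG00000048109) on 3, Rbm15b (ENSMUSG00000074102) on 9 and Cbll1 (ENSMUSG00000020659) on 12. All 10 members are protein-coding genes. Some share bases with other expressed genes, and whether the counting used read strand is not given in the sources used here, so their counts are uncertain to that extent. Mettl3 shares 1561 bases with Tox4 on the opposite strand, whose log2 fold change in Model against Ctrl was -0.73 (edgeR adjusted P = 0.00155), and Fto holds the antisense lncRNA Gm3235, which had 61 to 456 counts per mouse against at least 314 for Fto. These ranges do not show whether Gm3235 changed with Fto between the groups. Rbm15b lies wholly inside Manf on the same strand, and Manf fell by 1.31 on the log2 scale (adjusted P = 5.88e-04).

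Promoter sequences from 250 bases before to 50 after the start were in the RefSeq table (build GRCm38.p6) for 8 of the 10 members. They are shown for the enzyme Mettl3 and for the 4 members with a smaller adjusted P in Model against Ctrl, Wtap and Zc3h13 (higher in Model) and Fto and Alkbh5 (lower), so that members moving one way can be set beside those moving the other. Capitals mark matches, on either strand, to the GC box (GGGCGG), the CCAAT box (CCAAT), the ETS core (CCGGAAG), the NRF1 core (GCGCATGC), the E box (CACGTG) and the TATA box (TATAAA). Mettl3 spans chr14:52305075-52305374 (minus strand), Wtap chr17:12992494-12992793 (minus, the first of 3 listed starts), Zc3h13 chr14:75284116-75284415 (plus, the first of 2), Fto chr8:91313275-91313574 (plus) and Alkbh5 chr11:60537433-60537732 (plus).
Mettl3: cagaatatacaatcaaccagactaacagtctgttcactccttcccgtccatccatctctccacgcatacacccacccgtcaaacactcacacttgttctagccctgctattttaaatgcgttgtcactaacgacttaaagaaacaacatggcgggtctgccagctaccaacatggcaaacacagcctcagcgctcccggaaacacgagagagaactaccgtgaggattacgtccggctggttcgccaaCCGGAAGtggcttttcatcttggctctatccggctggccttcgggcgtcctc
Wtap: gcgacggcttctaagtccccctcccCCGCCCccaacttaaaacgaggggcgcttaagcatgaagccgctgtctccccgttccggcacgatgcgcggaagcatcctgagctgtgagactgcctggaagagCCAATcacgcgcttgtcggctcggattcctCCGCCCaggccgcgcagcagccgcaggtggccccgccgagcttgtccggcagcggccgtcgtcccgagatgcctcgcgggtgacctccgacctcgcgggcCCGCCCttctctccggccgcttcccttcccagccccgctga
Zc3h13: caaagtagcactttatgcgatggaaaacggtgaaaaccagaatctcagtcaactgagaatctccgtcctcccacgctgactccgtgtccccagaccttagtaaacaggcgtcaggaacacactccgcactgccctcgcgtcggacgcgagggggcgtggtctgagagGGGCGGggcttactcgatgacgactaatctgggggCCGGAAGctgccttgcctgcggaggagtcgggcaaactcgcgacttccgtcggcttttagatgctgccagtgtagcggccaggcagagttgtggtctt
Fto: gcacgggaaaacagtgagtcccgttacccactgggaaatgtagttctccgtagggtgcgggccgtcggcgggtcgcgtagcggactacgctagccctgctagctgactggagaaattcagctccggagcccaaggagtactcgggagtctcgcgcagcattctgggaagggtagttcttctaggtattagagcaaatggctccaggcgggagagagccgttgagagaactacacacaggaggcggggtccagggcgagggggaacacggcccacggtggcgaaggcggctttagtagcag
Alkbh5: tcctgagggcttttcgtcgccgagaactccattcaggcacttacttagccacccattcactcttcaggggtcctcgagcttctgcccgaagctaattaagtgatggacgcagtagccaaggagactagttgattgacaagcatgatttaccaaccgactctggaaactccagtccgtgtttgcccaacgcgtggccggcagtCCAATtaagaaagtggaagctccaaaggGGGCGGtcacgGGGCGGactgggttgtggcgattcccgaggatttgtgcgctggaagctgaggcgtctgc
Wtap held 3 GC boxes and 1 CCAAT box, Alkbh5 held 2 GC boxes and 1 CCAAT box, Zc3h13 held 1 GC box and 1 ETS core, and Mettl3 held 1 ETS core. Fto had no match to any of the 6 motifs in this window. Of the 8 member promoters, 6 held a GC box, which 35.7% of all 32851 promoters do, 3 a CCAAT box (37.4% of all), 3 an ETS core (8.86%) and 1, that of Rbm15b, an E box (7.15%). The NRF1 core (2.71% of all) and the TATA box (13.6%) were in none of the 8. The GC content was 52% for Mettl3, 69.3% for Wtap, 58.7% for Zc3h13, 60.7% for Fto and 55.3% for Alkbh5, against a median of 52.7%. Wtap and Alkbh5, which moved in opposite directions, held the same pair of motifs, both common among all promoters. The part of these motifs in the changes was not tested.

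The comparison of Model with Ctrl asks how the diabetic kidney differs from the non-diabetic one. Both erasers and the catalytic writer Mettl3 were lower in Model, together with Cbll1, while the adaptors Wtap and Zc3h13 were higher. The remaining 4 writers did not pass an adjusted P under 0.05 in edgeR's quasi-likelihood test. Of the 10 members 2 were called higher, where 19.6% of all genes tested were, and 4 were called lower, where 18.5% were. The split depends on scaling: 0 were higher and 7 lower with library size alone (8.87% and 32.5% of all genes), where Wtap and Zc3h13 lose and Mettl14, Virma and Rbm15 gain a call, and 2 were higher and 2 lower without the mitochondrial genes (31.9% and 9.23% of all genes). At the study's own limits, a fold change over 1.2 with an unadjusted P under 0.05, 7 of 10 members passed against 46.9% of all genes. The mice of Ctrl and Model did not overlap in CPM for 7 of 10 members against 40.2% of all genes. The median log2 fold change of the members was -0.30, and that of all genes was 0.04. The 2 erasers (median -0.86) and the 8 writers (median -0.17, 2 higher and 2 lower) are too few to set apart from each other.

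Mettl3, the catalytic subunit, stood at 7.28, 4.90, 6.91 and 7.95 CPM in Ctrl mice 1 to 4, at 3.83, 3.62, 3.56 and 3.16 CPM in Model, and at 6.72, 3.10, 6.55 and 10.04 CPM in YHY. All Model mice were below all Ctrl mice, Model had the narrowest spread, and the YHY mice ranged from below the lowest Model mouse (YHY 2) to above the highest Ctrl mouse (YHY 4). These values rest on 157 to 349 counts per mouse in Ctrl, 74 to 119 in Model and 56 to 259 in YHY. The log2 fold change in Model against Ctrl was -0.93 ± 0.29 (SE; 95% interval -1.55 to -0.32), lower in 4 of 4 mice, with an edgeR adjusted P of 0.0190. Without Model 4 the adjusted P was 0.0530, and with the mitochondrial genes left out of the library size it was 0.105 at a log2 fold change of -0.62, within an adjusted P range of 0.00230 to 0.105 over the 21 alternatives. Relative to the median of all genes, Mettl3 stood at -0.99 to -0.97 under each of 5 scalings.

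Mettl14, the RNA-holding partner, stood at 8.29, 6.80, 6.98 and 7.58 CPM in Ctrl, 5.44, 7.34, 6.26 and 6.84 CPM in Model, and 6.60, 7.08, 6.14 and 8.06 CPM in YHY. The 3 groups overlapped. Its log2 fold change in Model against Ctrl was -0.20 ± 0.18 (edgeR adjusted P = 0.417), its sign turned to 0.13 without the mitochondrial genes in the scaling, and with library size alone it was called lower (-0.65, adjusted P = 0.0241). Whether Mettl3 and Mettl14 differed in their response is taken up with the ratios.

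Wtap, the adaptor that brings the dimer to nuclear speckles, stood at 34.5, 37.2, 35.7 and 30.2 CPM in Ctrl, 50.7, 46.3, 47.1 and 40.4 CPM in Model, and 52.2, 60.8, 52.1 and 61.0 CPM in YHY. The groups followed one another without overlap, Ctrl lowest and YHY highest. Zc3h13, which anchors the assembly in the nucleus, stood at 14.4, 16.8, 17.5 and 15.1 CPM in Ctrl, 22.5, 29.1, 24.1 and 22.6 CPM in Model, and 22.0, 38.4, 34.4 and 32.4 CPM in YHY. Every db/db mouse was above every Ctrl mouse, and YHY 1 lay below all Model mice. Against Ctrl, Model had log2 fold changes of 0.42 ± 0.13 for Wtap (adjusted P = 0.0165) and 0.62 ± 0.17 for Zc3h13 (adjusted P = 0.00817), each higher in 4 of 4 mice. With library size alone they were 0.0012 (adjusted P = 0.996) and 0.18 (adjusted P = 0.420), while relative to the median of all genes they were 0.38 to 0.40 and 0.58 to 0.59 under each of 5 scalings. The adjusted P of Wtap was 0.0672 without Ctrl 1, 0.056 without Ctrl 3, 0.0944 without Ctrl 4, 0.0621 without Model 1 and 0.0812 with no filter, within 1.18e-04 to 0.996 over the 21 alternatives.

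Cbll1, a ubiquitin ligase that is part of the assembly, stood at 5.16, 4.28, 5.24 and 4.37 CPM in Ctrl, 3.25, 2.62, 3.06 and 3.08 CPM in Model, and 3.09, 3.87, 3.91 and 3.10 CPM in YHY. It had the fewest counts of the 10, down to 55 in a Model mouse, and no db/db mouse reached the lowest Ctrl mouse. The log2 fold change in Model was -0.66 ± 0.22 (adjusted P = 0.0279, lower in 4 of 4 mice), or -0.70 to -0.69 relative to the median of all genes under 5 scalings. The adjusted P lay between 0.0531 and 0.0751 without Ctrl 1, Ctrl 3, Model 2, Model 3 or Model 4, was 0.061 with upper-quartile scaling, 0.105 with no filter and 0.274 without the mitochondrial genes, and ranged from 0.00397 to 0.274 over all 21 alternatives.

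The remaining adaptors did not pass in Model. Rbm15, which binds RNA and recruits the complex, stood at 11.1, 11.0, 11.3 and 10.8 CPM in Ctrl, 9.21, 8.62, 7.86 and 7.82 CPM in Model, and 8.36, 11.7, 11.8 and 13.8 CPM in YHY. All Model mice were below all Ctrl mice, and 3 of 4 YHY mice were above all Ctrl mice. Its log2 fold change in Model was -0.40 ± 0.17 with an adjusted P of 0.0732, which was 0.0343 without Model 1, 0.0455 without YHY 1, 0.0261 with only the compared groups, 0.0429 with the 9 mice, 0.00431 with library size alone, and at most 0.748 over the alternatives. Virma, the scaffold of the assembly (12.0 to 20.9 CPM in Model, 14.4 to 17.9 in Ctrl), and Rbm15b, the paralogue of Rbm15 (10.6 to 16.8 and 11.6 to 17.8 CPM), overlapped between the groups. Their log2 fold changes were -0.13 (adjusted P = 0.580) and -0.04 (adjusted P = 0.893), and both signs turned without the mitochondrial genes in the scaling, while with library size alone Virma was called lower (-0.57, adjusted P = 0.0472).

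Fto, an eraser that also acts on other methylated adenines in RNA, stood at 40.1, 44.2, 38.3 and 41.9 CPM in Ctrl, 21.6, 19.6, 19.1 and 19.5 CPM in Model, and 23.96, 17.4, 17.1 and 18.1 CPM in YHY. The Ctrl mice were well above all db/db mice, and Model and YHY overlapped. Alkbh5, the other m6A eraser, stood at 78.5, 71.3, 73.2 and 80.6 CPM in Ctrl, 50.6, 46.2, 50.0 and 43.0 CPM in Model, and 34.6, 36.0, 35.4 and 37.2 CPM in YHY. The groups fell in order with no overlap, Ctrl highest and YHY lowest. In Model against Ctrl the log2 fold changes were -1.04 ± 0.14 for Fto (adjusted P = 4.66e-05) and -0.68 ± 0.12 for Alkbh5 (adjusted P = 3.64e-04), lower in 4 of 4 mice each. Both calls held in all 21 alternatives, with an adjusted P of at most 0.00169 for Fto and 0.0325 for Alkbh5, and relative to the median of all genes they stood at -1.08 to -1.07 and -0.72 to -0.71 under 5 scalings. Over the 12 mice, Pearson's r with the mitochondrial share was -0.955 for Fto and -0.932 for Alkbh5. Over deviations from the group means it was -0.37 and -0.36. No alternative adjusted for that share, which separates Ctrl from db/db mice, so share and genotype cannot be told apart here.

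**Figure D1:**
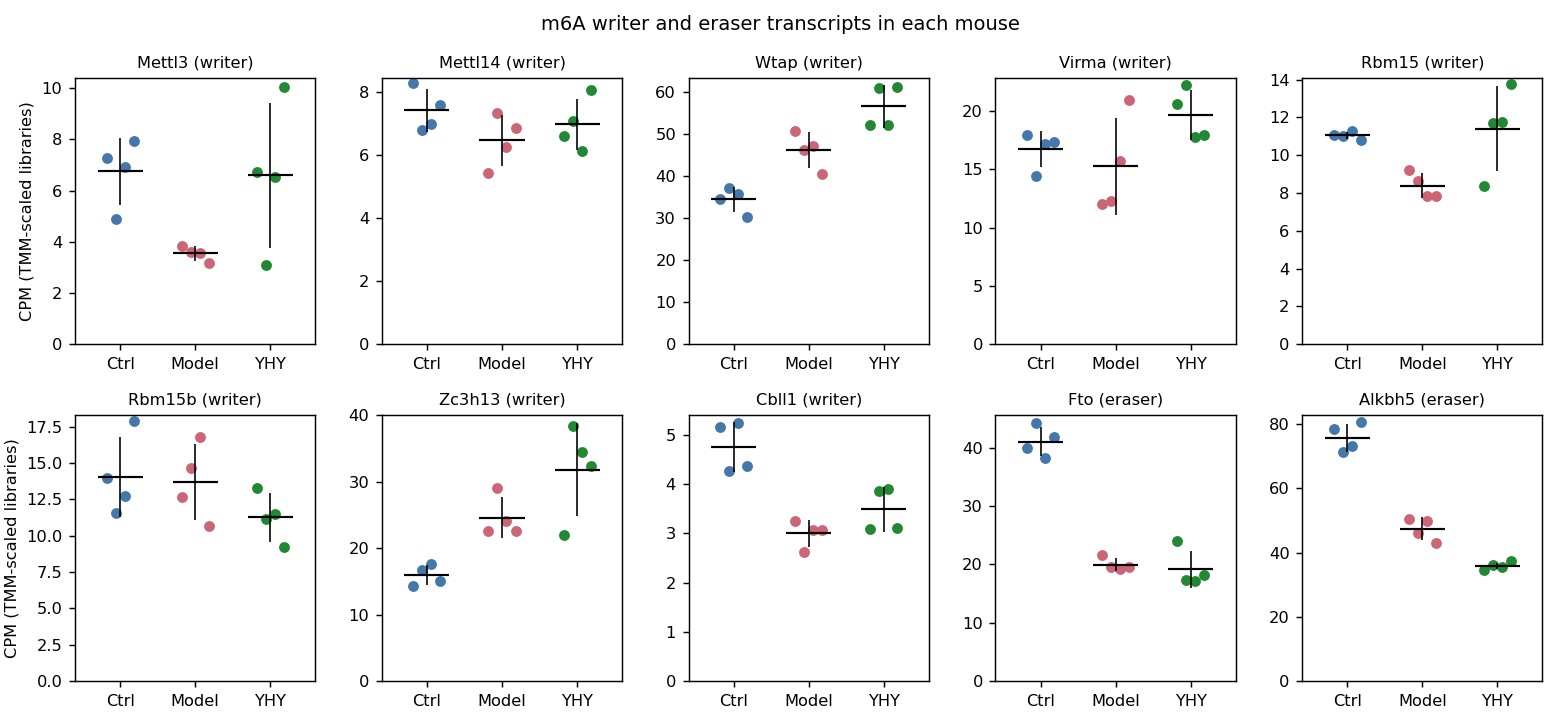
CPM of each of the 10 members in every mouse (TMM-scaled), with 1 point per mouse, the group mean as a bar and the SD as the error (n = 4 mice). Fto, Alkbh5, Mettl3 and Cbll1 are lower and Wtap and Zc3h13 higher in Model than in Ctrl, but Wtap (0.0012) and Zc3h13 (0.18) do not pass with library size alone, nor Mettl3 (-0.62) and Cbll1 (-0.34) without the mitochondrial genes.

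The comparison of YHY with Model asks what the decoction changes in the diabetic kidney. Alkbh5 was lower after YHY, and no other member passed the test. The means of Mettl3, Wtap, Zc3h13 and Rbm15 lay above those of Model at an unadjusted P under 0.05. By edgeR 0 of 10 members were called higher, against 5.63% of all genes, and 1 was called lower, against 7.62%. DESeq2 called 1 higher (Mettl3) and 1 lower, against 8.23% and 9.67% of all genes. At an unadjusted P under 0.05 edgeR had 4 higher and 1 lower, against 13.9% and 14.7%. At the study's limits 5 of 10 members passed, against 28.6% of all genes. The groups did not overlap for 2 members (Wtap and Alkbh5), against 16.1% of all genes. The median log2 fold change was 0.25 over the members and 0.02 over all genes. Model and YHY libraries overlap in mitochondrial share, and here leaving out those genes moved the median by 0.14 and the share of higher calls from 42.5% to 64.5%.

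The Mettl3 values above place 3 of 4 YHY mice above all Model mice and YHY 2 below them. The log2 fold change was 0.90 ± 0.29 (95% interval 0.28 to 1.52, unadjusted P = 0.00706 in edgeR's model), with an adjusted P of 0.0519. It was 1.13 with an adjusted P of 0.00987 without YHY 2. It was 0.90 (adjusted P = 0.0192) with DESeq2, 1.04 (0.0322) without the mitochondrial genes, 0.92 (0.0460) with upper-quartile scaling, 0.89 (0.0403) with no filter and 0.92 (0.0409) with at least 10 counts in every mouse. Over the 21 alternatives the adjusted P ran from 0.00987 to 0.151 and the log2 fold change from 0.63 to 1.13, and relative to the median of all genes it was 0.87 to 0.91 under 5 scalings. Mettl14 had 0.11 (adjusted P = 0.754).

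Among the adaptors Wtap had a log2 fold change of 0.29 ± 0.13 (adjusted P = 0.144) with all YHY mice above all Model mice, Rbm15 0.44 ± 0.17 (adjusted P = 0.0957) with YHY 1 among the Model mice, and Zc3h13 0.37 (adjusted P = 0.153). Without the mitochondrial genes in the scaling, Wtap (0.43, adjusted P = 0.0215) and Rbm15 (0.58, adjusted P = 0.0329) passed. Without YHY 1, Rbm15 (adjusted P = 0.0369) and Zc3h13 (0.51, adjusted P = 0.0391) passed. Virma (0.37, adjusted P = 0.188) passed only without Model 4 (0.55, adjusted P = 0.0480). Cbll1 (0.22, adjusted P = 0.576) and Rbm15b (-0.28, adjusted P = 0.352) overlapped between the groups and passed under none of the alternatives.

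Alkbh5 had a log2 fold change of -0.41 ± 0.12 (adjusted P = 0.0323, lower in 4 of 4 mice), and Fto had -0.06 (adjusted P = 0.824), with a sign that turned to 0.091 without the mitochondrial genes. Without YHY 1 they were -0.39 and -0.19, and the log2 difference of the Alkbh5 to Fto ratio was -0.20 (exact permutation, adjusted P = 0.0857) against -0.33 with all mice. The Alkbh5 call was absent under 12 of 21 alternatives, where the adjusted P reached 0.192, although its log2 fold change stayed between -0.45 and -0.26. Those were library size alone, no mitochondrial genes, no filter, only the compared groups, the 9 mice, the replicate block, and the fits without Model 1, Model 2, Model 3, YHY 1, YHY 2 or YHY 3, where leaving out 1 mouse gave an adjusted P of 0.0518 to 0.101. Relative to the median of all genes, Alkbh5 stood at -0.43 under each of 5 scalings.

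**Figure D2:**
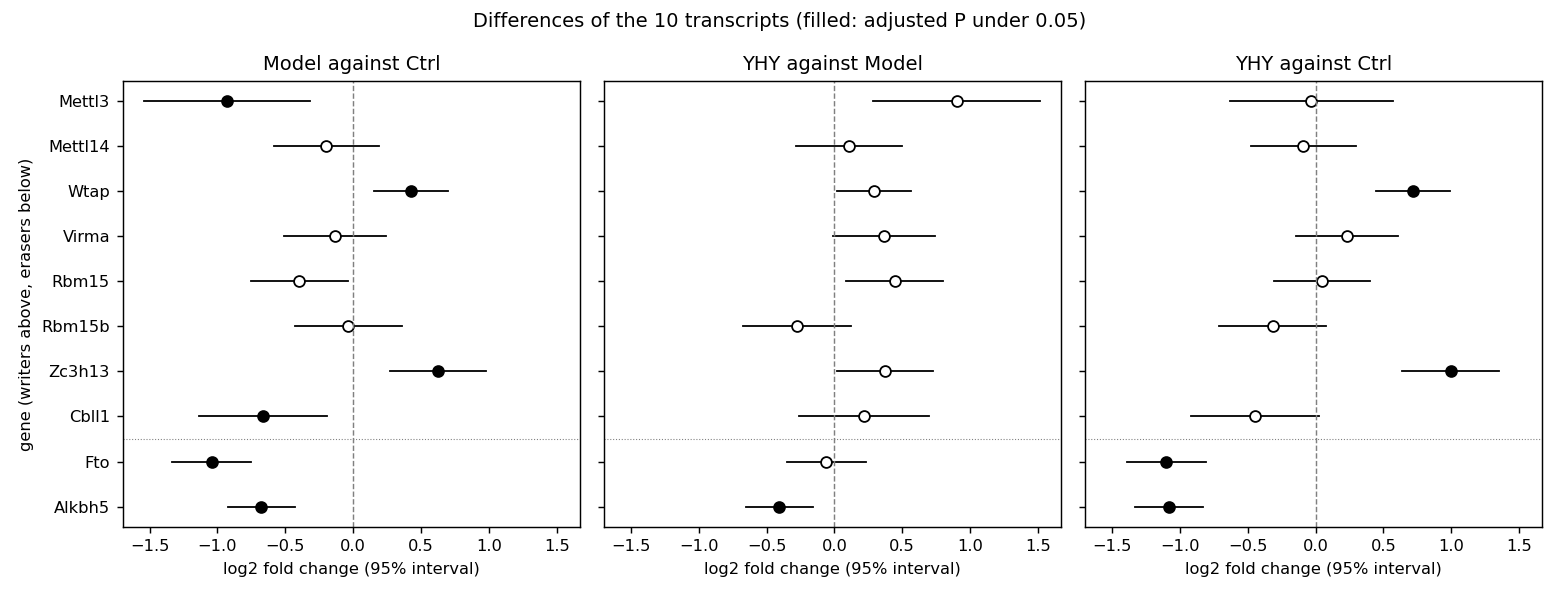
Log2 fold change of each member with its 95% interval for Model against Ctrl, YHY against Model and YHY against Ctrl (edgeR, n = 4 mice per group). Filled points passed an adjusted P under 0.05: Fto (-1.04) and Alkbh5 (-0.68) lie lowest with Mettl3 (-0.93) in Model against Ctrl, where the calls of Mettl3, Wtap, Zc3h13 and Cbll1 depend on scaling. The calls of Alkbh5 in YHY against Model and of Wtap in YHY against Ctrl depend on scaling too.

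YHY against Ctrl sets treated diabetic mice beside non-diabetic ones and shares its mice with the comparisons above. Wtap (log2 fold change 0.72, adjusted P = 2.60e-04) and Zc3h13 (1.00, adjusted P = 1.51e-04) were higher, and Fto (-1.10, adjusted P = 1.02e-05) and Alkbh5 (-1.08, adjusted P = 3.26e-06) lower. That is 2 of 10 higher against 26.1% of all genes, and 2 of 10 lower against 24.2%. At the study's limits 4 of 10 passed against 56.0%, and 5 of 10 did not overlap against 44.6%. The members' median was -0.06, and that of all genes was 0.10. Mettl3 had a log2 fold change of -0.03 (adjusted P = 0.938), which was 0.20 without YHY 2, 0.41 without the mitochondrial genes and -0.46 with the 9 mice. Its side of 0 depends on the mice included and on the scaling. Relative to the median of all genes, Mettl3 was -0.15 to -0.12 under 5 scalings. Cbll1 (-0.45, adjusted P = 0.105) was below Ctrl in all YHY mice. Scaling also added calls: with library size alone Cbll1 (-0.88, adjusted P = 0.0115) and Rbm15b (-0.75, adjusted P = 0.0149) were lower, and without the mitochondrial genes Virma (0.69, adjusted P = 0.00973) and Rbm15 (0.50, adjusted P = 0.0176) were higher. Scaling by library size alone moved the median of all genes by -0.43, leaving out the mitochondrial genes by 0.46 and the upper quartile by 0.12, with 28.4% and 77.6% of called genes higher under the former pair against 51.9% with TMM. Relative to that median Wtap was 0.61 to 0.62, Zc3h13 0.87 to 0.89, Fto -1.20 to -1.18 and Alkbh5 -1.19 to -1.18 under 5 scalings, though with library size alone Wtap (0.28, adjusted P = 0.176) did not pass.

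**Figure D3:**
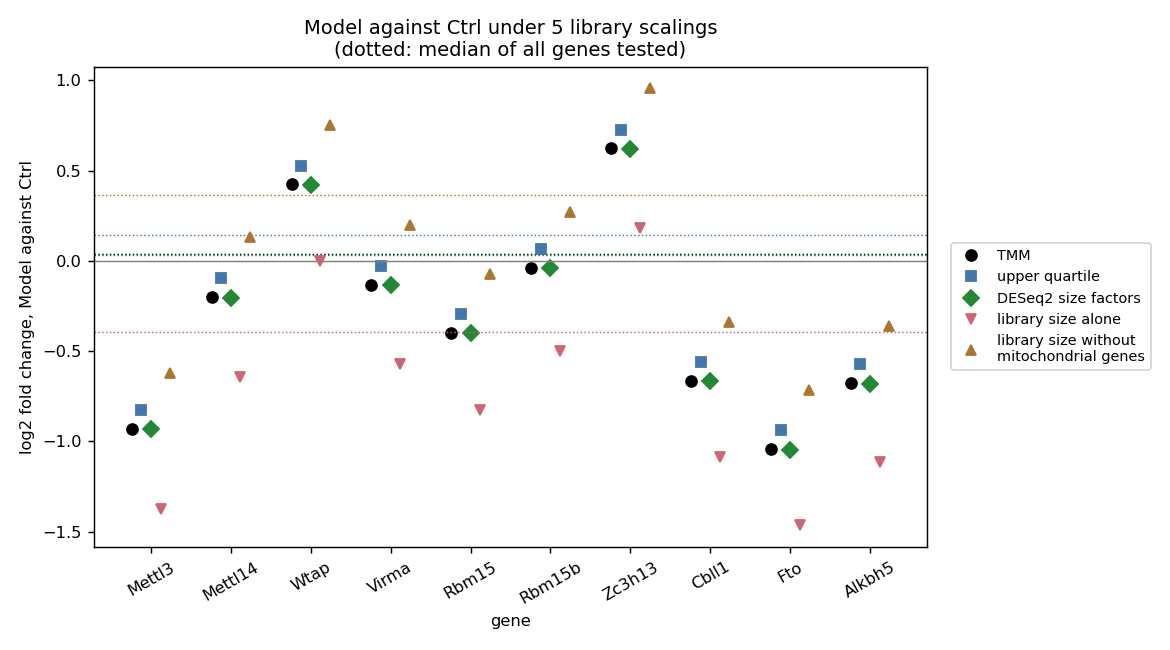
Log2 fold change of each member for Model against Ctrl under 5 ways of scaling the libraries, with the median of all genes under the same scaling as a dotted line. Members and median move together: Wtap goes from 0.0012 with library size alone to 0.75 without the mitochondrial genes and stays 0.38 to 0.40 above the median.

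A ratio of FPKM values within a mouse does not depend on how libraries are scaled. Mettl3 relative to its partner Mettl14 was 1.28, 1.05, 1.45 and 1.53 in Ctrl, 1.03, 0.721, 0.832 and 0.676 in Model, and 1.49, 0.639, 1.56 and 1.82 in YHY. All Model mice were below all Ctrl mice, by a narrow gap between Model 1 and Ctrl 2, and 3 of 4 YHY mice were above all Model mice while YHY 2 was below them. The mean fell from 1.33 ± 0.211 to 0.815 ± 0.157, a log2 difference of -0.71, with a two-sided exact permutation P of 0.0286, the smallest that 4 against 4 mice allow, and 0.0429 after adjustment over 6 tests. For YHY (1.38 ± 0.512) against Model the difference was 0.67 (exact permutation P = 0.143, adjusted 0.143), and without YHY 2 it was 1.01 (adjusted 0.0286).

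Wtap relative to Mettl3 was 3.85, 6.17, 4.20 and 3.08 in Ctrl, 10.7, 10.4, 10.7 and 10.4 in Model, and 6.31, 15.9, 6.47 and 4.94 in YHY. The Model mice were nearly identical and above all Ctrl mice, and YHY 2 stood apart from the other YHY mice. The log2 difference was 1.33 in Model against Ctrl (exact permutation P = 0.0286, adjusted 0.0429) and -0.49 in YHY against Model (exact permutation, adjusted P = 0.143), where it was -0.85 without YHY 2 (adjusted 0.0286). Alkbh5 relative to Fto was 4.27, 3.51, 4.16 and 4.19 in Ctrl, 5.10, 5.14, 5.69 and 4.79 in Model, and 3.15, 4.51, 4.50 and 4.47 in YHY. Model was above both other groups without overlap. The log2 difference was 0.36 for Model against Ctrl and -0.33 for YHY against Model (exact permutation, adjusted P = 0.0429 for each). With 1 mouse of the compared groups left out, the calls of Model against Ctrl held only without Model 1. P was adjusted over all 6 tests together, so a ratio can lose its call through the P of another ratio. A lost call therefore does not show a smaller difference. The log2 differences stayed at -0.83 to -0.63 for Mettl3 to Mettl14, 1.19 to 1.52 for Wtap to Mettl3 and 0.30 to 0.40 for Alkbh5 to Fto. Without Ctrl 1, Ctrl 2, Ctrl 3, Ctrl 4, Model 2, Model 3 or Model 4 the adjusted exact permutation P was at most 0.114 for Mettl3 to Mettl14 and 0.0857 for the other ratios. Among the mice of YHY against Model, its Alkbh5 to Fto call was absent without Model 2, Model 3, Model 4 or YHY 1. There its adjusted exact permutation P was at most 0.129.

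The mean FPKM of the 8 writers over that of the 2 erasers was 0.275, 0.275, 0.297 and 0.263 in Ctrl, 0.467, 0.529, 0.497 and 0.519 in Model, and 0.685, 0.843, 0.787 and 0.806 in YHY. The groups rose in order with no overlap, from 0.278 ± 0.0142 to 0.503 ± 0.0277 and 0.780 ± 0.0678. This ratio was not tested, and it weighs the abundant Wtap and Alkbh5 most. It rose while Mettl3 itself fell in Model.

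**Figure D4:**
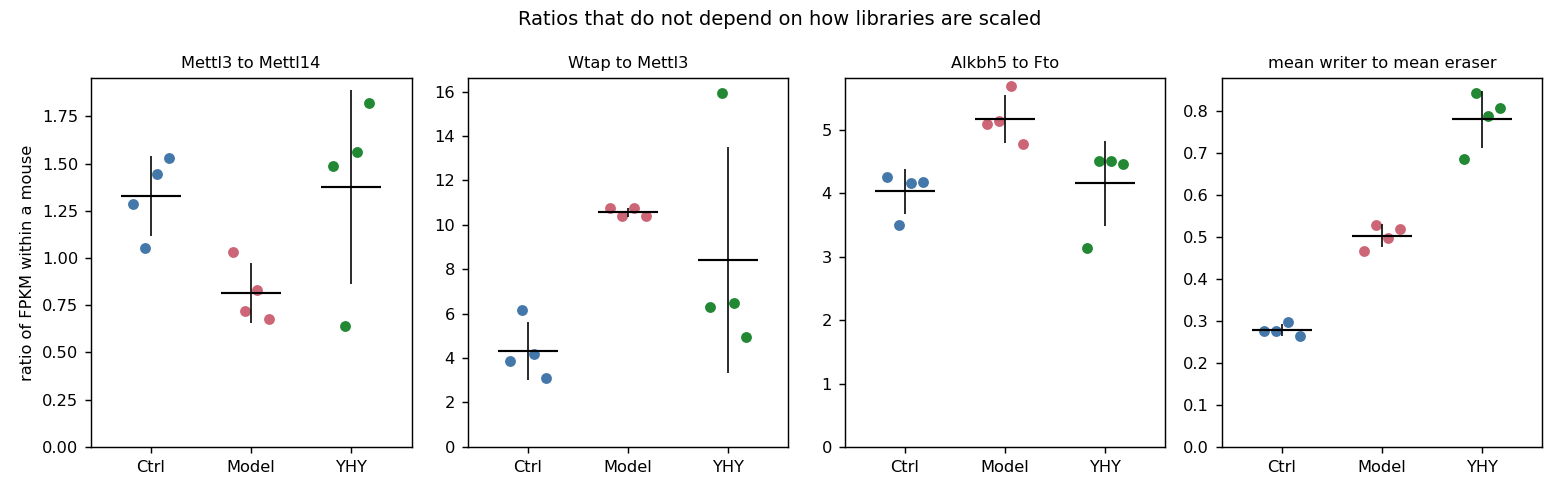
FPKM ratios within each mouse for Mettl3 to Mettl14, Wtap to Mettl3, Alkbh5 to Fto, and mean writer to mean eraser, with the group mean and SD (n = 4). Model lies below Ctrl for Mettl3 to Mettl14 (0.815 against 1.33), above both groups for Alkbh5 to Fto, and between them for writers to erasers.

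Other genes of RNA adenine methylation were read from lists, whose counts stand beside the shares of all genes called in Model against Ctrl (19.6% higher, 18.5% lower), YHY against Model (5.63% and 7.62%) and YHY against Ctrl (26.1% and 24.2%). Of 6 other adenine RNA methyltransferases and partners, 2 rose (19.6% of all genes) and 4 fell (18.5% of all genes) in Model against Ctrl (summed CPM 105, 99.3 and 102 in Ctrl, Model and YHY). Zcchc4, which methylates RNA of the large ribosomal subunit, was higher (log2 fold change 1.10, adjusted P = 5.22e-04) and so was Pcif1, which methylates cap-adjacent adenines (0.55, adjusted P = 0.00495). Mettl16, which methylates a spliceosomal RNA and the Mat2a transcript, was lower (-0.83, adjusted P = 0.00129), as were Trmt112, the partner of Mettl5 (-0.68, adjusted P = 0.00876), Mettl5 itself and Mettl4. Pcif1 did not pass with library size alone (0.13, adjusted P = 0.604) and Trmt112 did not without the mitochondrial genes (-0.37, adjusted P = 0.0921), where Mettl5 and Mettl4 lost their calls too and 3 of 6 remained. In YHY against Ctrl the list again had 2 higher and 4 lower, with Zcchc4 at 1.78, Mettl5 at -1.10, Mettl16 at -1.06 and Trmt112 at -0.81. Without the mitochondrial genes neither Mettl5 (-0.63, adjusted P = 0.0567) nor Trmt112 (-0.35, adjusted P = 0.0972) passed there. In YHY against Model only Zcchc4 passed (0.67, adjusted P = 0.0340), and the call was absent with library size alone, with the 9 mice and without Model 1, Model 2, Model 3, Model 4, YHY 1, YHY 2 or YHY 4 (adjusted P up to 0.126).

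Of the 7 other AlkB homologues, relatives of Alkbh5 with varied substrates, 2 rose and 1 fell in Model (summed CPM 67.8, 79.9 and 83.2), beside 19.6% and 18.5% of all genes. Alkbh3 (0.92, adjusted P = 0.00277) and Alkbh1 (0.87, adjusted P = 0.00499) moved opposite to Alkbh5, though with library size alone they had 0.50 (adjusted P = 0.0756) and 0.42 (adjusted P = 0.0999). Alkbh7 was lower (-0.44, adjusted P = 0.0375), a call absent in 10 of 21 alternatives, those without Ctrl 1, Ctrl 2, Ctrl 4, Model 2, Model 3 or Model 4 among them (adjusted P up to 0.550). In YHY against Model edgeR called 0 of 7, DESeq2 called 0, and 1 was higher (Alkbh8) and 1 lower (Alkbh2) at an unadjusted P under 0.05. In YHY against Ctrl 2 were higher (Alkbh1 1.21, Alkbh3 0.73) and 2 lower (Alkbh2 -1.03, Alkbh7 -0.70), and the Alkbh2 call was absent without Ctrl 3, Ctrl 4, YHY 1 or YHY 2 (adjusted P of at most 0.0981), with upper-quartile scaling, with no filter and without the mitochondrial genes (adjusted P up to 0.249). There Alkbh3 did not pass with library size alone (0.31, adjusted P = 0.258), nor Alkbh7 without the mitochondrial genes (-0.24, adjusted P = 0.192).

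Writers take the methyl group from S-adenosylmethionine. Of 11 tested genes of its supply and use (of 12 listed, without Mat1a), 1 rose (19.6% of all genes) and 7 fell (18.5% of all genes) in Model, with a mean summed CPM of 1098 for Ctrl, 624 for Model and 615 for YHY. Mat2a, which makes S-adenosylmethionine outside the liver, fell by 1.18 on the log2 scale (adjusted P = 1.88e-04), and Ahcyl1 and Ahcyl2, relatives of the hydrolase that clears its product, both fell by 1.13 (adjusted P = 1.25e-04 and 1.34e-04). Bhmt, which remethylates homocysteine, rose by 3.52 (adjusted P = 1.69e-04). These calls held in all 21 alternatives. In YHY against Model edgeR called 0 of 11, DESeq2 called 2 higher, and at an unadjusted P under 0.05 edgeR had 2 higher and 1 lower (Ahcyl2). In YHY against Ctrl 2 were higher and 7 lower, with Bhmt at 3.39, Ahcyl2 at -1.55, Mat2a at -1.19 and Mat2b at -1.03.

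Of 12 tested m6A readers (of 13, without Igf2bp3), 2 rose (Igf2bp2 and Ythdc1) and 4 fell (Hnrnpc, Fmr1, Igf2bp1 and Ythdf2) in Model (summed CPM 792, 669 and 738), where 19.6% and 18.5% of all genes did. Hnrnpc (-0.71, adjusted P = 4.96e-04), Fmr1 (-0.74, adjusted P = 0.00383) and Igf2bp1 (-1.63, adjusted P = 0.0110) were lower and Igf2bp2 was higher (1.07, adjusted P = 0.00252), the latter not with library size alone (0.62, adjusted P = 0.0729). In YHY against Model 3 rose and none fell by edgeR or DESeq2, with 6 higher at an unadjusted P under 0.05: Fmr1 (0.58, adjusted P = 0.0404), Ythdf3 (0.53, adjusted P = 0.0419) and Ythdc2 (0.66, adjusted P = 0.0474). Leaving out 1 mouse ended the Fmr1 call for Ctrl 1, Ctrl 3, all Model mice, YHY 2 or YHY 4 (adjusted P up to 0.113), the Ythdf3 call for Ctrl 1, Ctrl 2, Ctrl 3, all Model mice, YHY 2 or YHY 4 (up to 0.124), and the Ythdc2 call for all Ctrl mice, Model 2, Model 3, Model 4, YHY 1, YHY 3 or YHY 4 (up to 0.144). All 3 calls were also absent with library size alone (adjusted P of 0.0846 for Fmr1, 0.104 for Ythdf3 and 0.154 for Ythdc2). They were absent too with only the compared groups, with the 9 mice and with the replicate block (adjusted P of 0.0809, 0.0723 and 0.0553), and Ythdf3 and Ythdc2 with no filter. In YHY against Ctrl 4 were higher and 4 lower, among them Ythdc1 (1.14), Igf2bp2 (1.41), Ythdc2 (0.71) and Hnrnpc (-0.44), and Hnrnpc turned to 0.023 without the mitochondrial genes, while Ythdc2 did not pass with library size alone (0.30, adjusted P = 0.387).

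Mtor, the kinase transcript that the study links to Mettl3, had 113 to 208 CPM in Ctrl, 108 to 150 in Model and 115 to 174 in YHY, and the groups overlapped. Its log2 fold changes were -0.40 in Model against Ctrl (adjusted P = 0.136) and 0.10 in YHY against Model (adjusted P = 0.809), against -0.93 and 0.90 for Mettl3. The former passed without Ctrl 4 (-0.61, adjusted P = 0.0209) and with library size alone (-0.82, adjusted P = 0.00491), within 0.00491 to 0.873 over the alternatives, and the latter was -0.024 without YHY 2. Lepr had -0.54 (adjusted P = 0.292) and 0.65 (adjusted P = 0.298), ran from -0.76 to -0.30 and from 0.29 to 0.90 with a mouse left out, and passed in Model against Ctrl with the 9 mice (-0.96, adjusted P = 0.0468). Since db alters its splicing, gene counts do not check the genotype.

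Over the 12 mice, the log2 CPM of Mettl3 was most like that of the beta-globin genes Hbb-bs (Pearson's r = 0.961, Spearman's rho = 0.944) and Hbb-bt (r = 0.939), with the lncRNA Gm16185 (0.933) and the cell-cycle inhibitor gene Cdkn1b (0.930) also among the 5 highest of 16802 genes with a symbol. The lowest were Armc5 (r = -0.941), Parp10 (-0.917), Cit (-0.908), the pseudogene Hspe1-ps6 (-0.900) and Knstrn (-0.890). These are descriptions of the extremes of a ranking, over libraries that share group and depth. For Hbb-bs, r was 0.954 without YHY 2 and Model 4, the mice with the lowest Mettl3, and 0.922 over deviations from the group means. Hbb-bs stood at 211, 105, 174 and 301 CPM in Ctrl, 75.8, 72.9, 68.7 and 69.3 in Model, and 127, 65.5, 216 and 294 in YHY. The near-identical beta-globin copies can share reads, so their counts are uncertain. As with Mettl3, the Model mice were low and close together, Ctrl 2 was the lowest Ctrl mouse, and YHY 2 was the lowest YHY mouse with YHY 4 the highest. Hbb-bs is a red cell transcript, and the part of blood left in the tissue in the Mettl3 values was not tested.

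**Figure D5:**
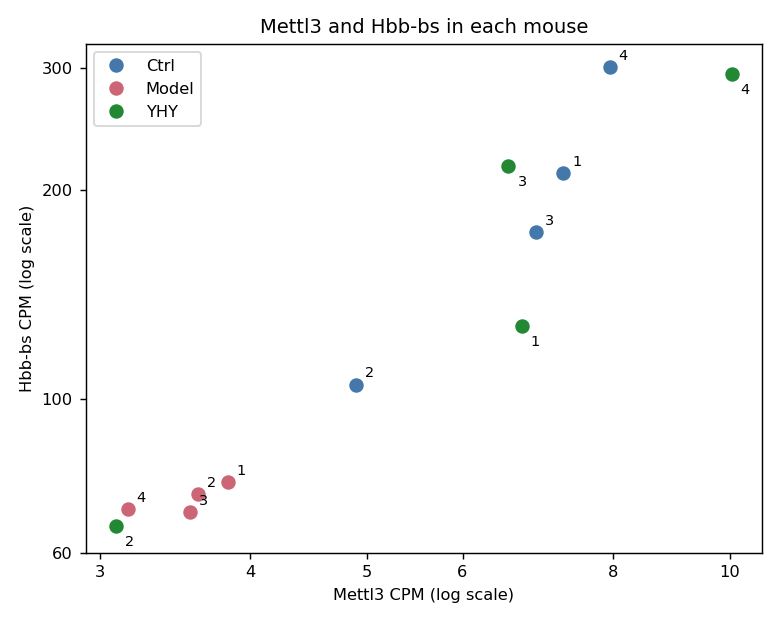
Mettl3 CPM against Hbb-bs CPM in the 12 mice on log axes, with points coloured by group and numbered by mouse. The 4 Model mice cluster at 68.7 to 75.8 CPM of Hbb-bs with YHY 2 beside them at 65.5, and the other mice lie higher on both axes.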

How the data were processed

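Kidney mRNA of 12 mice was measured by poly(A) sequencing. The authors deposited raw read counts for 57490 genes per mouse, with gene lengths and coordinates as other columns deposited with them. The submitters' processing notes name FastQC 0.11.9, Trimmomatic 0.39, HISAT2 2.2.1, SAMtools 1.12, featureCounts 2.0.1, DESeq2 1.34.0, R 4.1.2 and the builds GRCm39 and mm39. The strand setting and annotation release are not given in the sources used here. Further deposited tables hold the authors' own comparisons (fold changes, p-values, pathway enrichment) and gave no value reported here, nor did 12 columns of values per mouse in them.

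The tests used edgeR 4.0.16 under R 4.3.3 (filterByExpr, TMM, glmQLFit and glmQLFTest, two-sided) in 1 fit of 3 groups, with P adjusted by the Benjamini-Hochberg method over 17431 genes and called under 0.05. CPM used TMM-scaled library sizes, FPKM divided CPM by the deposited gene length, and correlations used log2 CPM with a prior count of 2. Ratios were compared by exact two-sided permutation over 70 regroupings, adjusted over 6 tests. The steps were tested on simulated data. Replicate libraries differed beyond sampling noise (chi-square per degree of freedom of at least 17.3). Figures were drawn with matplotlib 3.10.9, and tables were handled with pandas 2.3.3 and numpy 2.4.6 under Python 3.11.15, and with limma 3.58.1 and data.table (version 1.17.8).

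All members were named, with up to 4 genes per list and comparison by smallest adjusted P under 0.05, Mtor, Lepr, and the 5 genes most and 5 least correlated with Mettl3. Cell type markers and the overlapping genes Tox4, Gm3235 and Manf were named after their values were seen, as were further genes behind counts of 5 or fewer. Not every gene that the rule names is reported here. Members and lists were chosen with earlier results of these data known. Alternatives were DESeq2 1.42.0, scaling by library size alone, without the 37 mitochondrial genes, or by upper quartile, no filter, at least 10 counts in every mouse, only the compared groups, the 9 mice that an earlier reading of these data had matched to the authors' group means (Ctrl 1, 3 and 4, Model 2, 3 and 4, YHY 1, 2 and 3), the replicate block, each mouse left out, and the study's limits.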

Additional observations from a re-analysis of the deposited data

Results flagged for a closer look

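In 6 of 45 groups of 4 mice, 1 mouse lay so far from the other 3 that its gap took up most of the range of the group (Dixon's limit), and chance gives about 1 in 20 such groups. Among the members, Fto was at 23.96 CPM in YHY 1, against 17.1 to 18.1 in the other YHY mice. The same mouse had an Alkbh5 to Fto ratio of 3.15, against 4.47 to 4.51 in the others, and in Ctrl 2 that ratio was 3.51, against 4.16 to 4.27. In YHY 2 the Wtap to Mettl3 ratio was 15.9, against 4.94 to 6.47 in the other YHY mice. YHY 2 also had 64.6% of its counts on the mitochondrial genome, against 53.8% to 54.6%, and Ctrl 2 had 22.7%, against 18.4% to 18.6%. The cause of these values was not tested.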

How the results depend on the processing

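Fto and Alkbh5 were lower in Model than in Ctrl in all 21 alternatives, none of which adjusted for the mitochondrial share. The count of called members stayed within 1.5 times for each comparison with Ctrl. Leaving out 1 mouse gave 4 to 7 called members for Model against Ctrl, where 29.3% to 39.9% of all genes were called. For YHY against Ctrl it gave 4 called members, where 43.9% to 50.2% of all genes were called. The number of members called in YHY against Model, 1 with the reported settings (13.3% of all genes called in either direction), was 2 with DESeq2 (17.9% of all genes), upper-quartile scaling (13.5%) or at least 10 counts in every mouse (17.9%), 3 without the mitochondrial genes (13.4%), 5 at the study's limits (28.6%), and 0 with library size alone (6.75%), only the compared groups (8.42%) or the 9 mice (12.2%). All 3 without the mitochondrial genes were higher, where 8.66% of all genes were higher and 4.76% lower. With a mouse left out the number of members was 0 to 2, where 6.34% to 15.3% of all genes were called. Mettl3 in Model against Ctrl was -0.62 without the mitochondrial genes (adjusted P = 0.105) and -1.06 to -0.88 with a mouse left out. In YHY against Model it was 0.90 with DESeq2, 1.04 without the mitochondrial genes, 0.92 with upper quartile, 0.89 with no filter, 0.92 with at least 10 counts, and 0.63 to 1.13 with a mouse left out. In YHY against Ctrl it turned to 0.41 without the mitochondrial genes, 0.090 with upper quartile and 0.029 with at least 10 counts, and ran from -0.31 to 0.20 with a mouse left out. With 3 against 3 of the 9 mice, where the smallest exact permutation P is 0.1, log2 ratios in Model against Ctrl were -0.94 for Mettl3 to Mettl14, 1.51 for Wtap to Mettl3 and 0.30 for Alkbh5 to Fto, and -0.38 for Alkbh5 to Fto in YHY against Model. With a mouse left out they were -0.83 to -0.63, 1.19 to 1.52 and 0.30 to 0.40 in Model against Ctrl, and 0.50 to 1.01, -0.85 to -0.29 and -0.37 to -0.20 in YHY against Model.

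Signs turned for some genes, with no adjusted P under 0.05 after the turn. Hnrnpc in YHY against Ctrl lost its call as well. Without the mitochondrial genes, Model against Ctrl gave 0.13 for Mettl14, 0.20 for Virma and 0.27 for Rbm15b, YHY against Model gave 0.091 for Fto, and YHY against Ctrl gave 0.37 for Mettl14, 0.15 for Rbm15b, 0.022 for Cbll1 and 0.023 for Hnrnpc. Rbm15b in Model against Ctrl was also 0.066 with upper quartile, 0.0064 with at least 10 counts and -0.15 to 0.063 with a mouse left out. Mettl14 in YHY against Ctrl was 0.030 with upper quartile. With the 9 mice, YHY against Model gave -0.031 for Mettl14 and 0.024 for Fto, and YHY against Ctrl gave -0.10 for Rbm15. With library size alone, YHY against Ctrl gave -0.21 for Virma and -0.40 for Rbm15. With a mouse left out, Rbm15 in YHY against Ctrl was -0.063 to 0.16 and Mtor in YHY against Model -0.024 to 0.18. Among the lists, the 6 other methyltransferases called in Model or in YHY, each against Ctrl, were 3 without the mitochondrial genes (41.1% and 54.8% of all genes called). The 8 readers called in YHY against Ctrl were 5 with the 9 mice (48.7% of all genes) or without Ctrl 1 (44.2%). In YHY against Model, with a mouse left out, 0 to 1 methyltransferases (reported: 1), 0 to 3 readers (3) and 0 to 1 genes of S-adenosylmethionine (0) passed, where 6.34% to 15.3% of all genes did. The AlkB homologues went from 0 to 1 without the mitochondrial genes (13.4% of all genes). For all these changes the cause was not tested.

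With the replicate block, Mettl3 in Model against Ctrl was -0.88 (adjusted P = 0.0221, within 0.00230 to 0.105 over the alternatives). In YHY against Model 0 members were called with the block, against 11.0% of all genes, and Alkbh5 had -0.40 (adjusted P = 0.0620, within 0.00338 to 0.192). The labels do not say whether the numbers pair the mice. In deviations from the group means over all genes tested, mice with the same number had r from -0.17 to 0.12, over 0.1 in 2 of 12 pairs. Mice with different numbers had r from -0.25 to 0.21, over 0.1 in 4 of 36 pairs. A weak pairing, or a pairing that affects few genes, would not show in these values.

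The lowest count in a mouse was 55 for Cbll1 and 56 for Mettl3, and libraries of the same group differed by more than counting error, with a chi-square per degree of freedom of at least 17.3. With 4 mice per group, ratios reach no exact permutation P under 0.0286, and a difference that did not pass is not shown to be absent. Kidney RNA gives transcript levels, and neither protein nor m6A itself was measured here.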
